A study of Mus musculus with 9 samples.

Results

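The 10 genes described here, out of 37980 in the data, lie near endogenous Nup98 on mouse chromosome 7, and their mRNA was compared between myeloid progenitors (MPs) with and without the NUP98-HOXA10hd fusion gene (NA). They are Relt, Fchsd2, Stard10, Arap1, Clpb, Inppl1, Rab6a, Stim1, Rhog and Pgap2. They were chosen by their position and by their measured values in the same comparison, some because they differed between the groups and others because they did not, so their differences are given as a description and carry no test. The groups were 4 samples of NA MPs and 5 samples of WT MPs, each made up of 100000 Lin-c-kit+Sca1- bone marrow cells of C57BL/6 mice. Recipients of NA multipotent progenitors (MPPs) gave the NA MPs, sorted by Tdtomato, and recipients of WT MPPs gave the WT MPs, sorted by CD45.2, at 3 months after transplantation per the labels and a month later per the methods. The NA MPPs came from NA LSL/+; Vav-Cre mice, in which the fusion gene is expressed from the Rosa26 locus once Vav-Cre, active in blood cells, has removed a stop cassette. The WT cells have no named allele, and all recipients were irradiated C57BL/6 mice given helper marrow. The methods describe recipients as CD45.2+ too, so donor, helper and recipient origin of the WT MPs cannot be told apart. The paper's legends mark donor cells by Tdtomato or CD45.1, and its staining of WT MPP recipients used CD45.1. The CD45.2+ WT MPs may therefore not descend from the transplanted WT MPPs. No source says how many mice made up a sample, so p-values measure the spread between these samples, which may be partly technical.

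Nup98 encodes a mobile protein of the nuclear pore whose repeats also bind chromatin regulators, and translocations that join it to homeobox genes drive leukaemia. Its neighbours on chromosome 7 are not a gene family. They serve phosphoinositide signalling, small GTPase control, lipid transfer, endocytosis, Golgi traffic, calcium entry, protein folding in mitochondria and processing of lipid-anchored proteins, all of them general tasks of blood cells. In the NA mice the fusion gene sits on another chromosome, and endogenous Nup98 was left in place.

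Reads per sample ran from 5557692 to 8106152, and 11953 genes had enough reads to be tested. At this depth 3 reads correspond to 0.374 to 0.543 CPM (counts per 1000000 reads), a limit set by counting error alone, and the lowest count of any of the 10 genes in any sample was 41 reads. All 10 genes passed the filter on low counts. Levels below are CPM after TMM scaling, which sets the libraries to a common level, and a gene is called where edgeR's quasi-likelihood test gave an adjusted p under 0.05 over all tested genes. Hoxa10, whose homeodomain is part of the fusion, ran from 17.5 to 23.4 CPM in NA MPs and from 0.840 to 1.80 CPM in WT MPs, with no overlap. Counts per gene do not separate reads of the fusion from those of endogenous Hoxa10, so this value may hold both. NA MP replicate 1 stood apart from the other NA MPs on the second principal component (19.3 against -9.11 to -2.86). Markers of other cell types also differed between the groups: all 11 tested pro-B and pre-B genes were called higher in NA MPs (summed level 219 to 395 CPM against 55.6 to 62.3 in WT MPs), all 7 tested erythroid genes lower (542 to 680 against 887 to 960 CPM), 5 of 7 mast cell and basophil genes higher and 1 lower (752 to 871 against 570 to 602 CPM), and 3 of 7 tested late neutrophil genes higher and 1 lower (508 to 792 against 422 to 502 CPM). The erythroid list also named Hbb-b1, which matched no gene in the data. The beta-globin genes Hbb-bs (log2 fold change 0.48, SE 0.23) and Hbb-bt (-0.46, SE 0.30) were not in that list and were not called. Both tested genes of 6 stromal markers were higher (65.7 to 73.7 against 31.0 to 36.1 CPM), as was the only T cell gene tested of 7, with Cd3e and Cd3g at 0 reads in every sample (6.88 to 10.2 against 1.67 to 2.86 CPM). Of 6 megakaryocyte genes 1 was higher and 2 were lower (212 to 245 against 210 to 235 CPM), and 13 of 14 tested immediate early genes were higher (1986 to 4380 against 437 to 923 CPM). Of 10 markers of myeloid progenitors themselves, which include Kit and Mpo, 6 were called higher and 1 lower, with summed levels of 24990 to 27420 CPM in NA MPs and 24310 to 25280 CPM in WT MPs. The part of these cells in the differences described below was not tested, and in bulk samples fewer cells of a type and less RNA per cell cannot be told apart.

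Endogenous Nup98, the gene at the centre, gave 145, 127, 151 and 155 CPM in the 4 NA MP samples and 85.1, 85.5, 94.3, 94.1 and 91.0 CPM in the 5 WT MP samples. All NA MP samples lay above all WT MP samples, with a log2 fold change of 0.68 (SE 0.048, edgeR's quasi-likelihood test, adjusted p = 4.89e-14). Reads from the fusion gene and from the endogenous gene cannot be told apart in counts per gene, so this value may hold both. Nup98 lies on the minus strand at chr7:102119398-102210176 (GRCm38), and distances below are from its start to the start of each gene.

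Of the 10 neighbours, 3 were higher in NA MPs, 1 was lower and 6 were not called. Over all tested genes 34.1% were called, 17.9% higher and 16.3% lower, and since this comparison chose the 10 genes nothing is read from their count. The groups did not overlap for the same 4 genes, against 26.4% of all tested genes (14.2% with NA MPs above and 12.2% with NA MPs below). Only Inppl1 moved by more than 2-fold, a size reached in 2.63% of tested genes in the upward and 1.51% in the downward direction. The median log2 fold change of the 10 genes was 0.03, and that of all tested genes was below 0.01 in size.

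**Figure D1:**
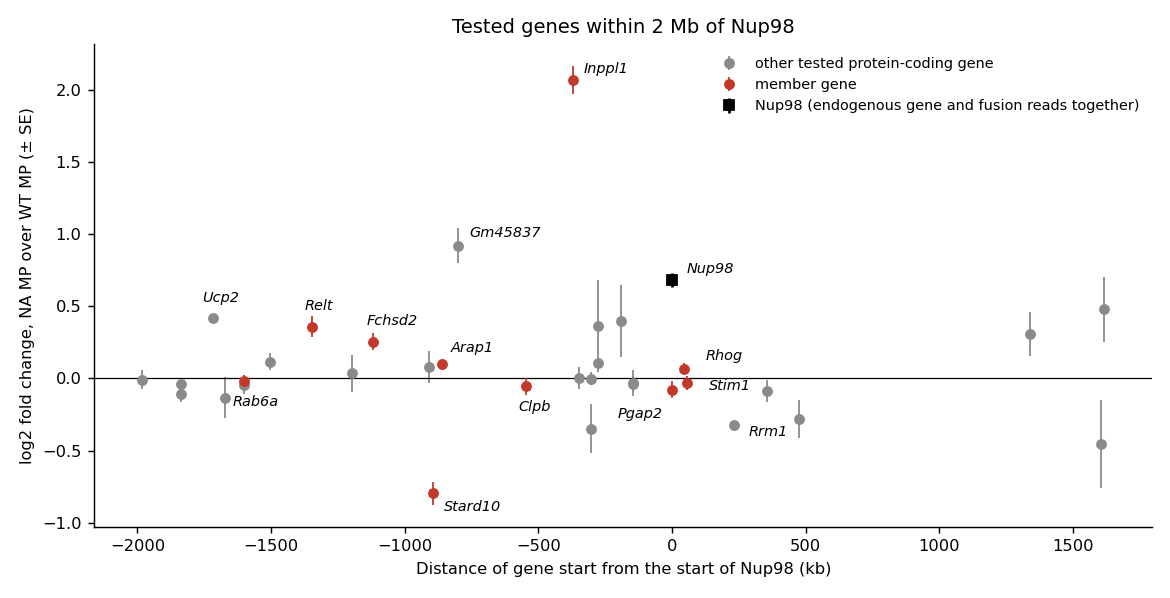
log2 fold change of NA MPs over WT MPs (vertical axis, bars are SE) for each tested protein-coding gene within 2 Mb of Nup98, by the distance of its start from the start of Nup98 in kb (horizontal axis; negative is lower coordinates). Red points are the 10 genes described, grey points the other 24 tested genes and the black square Nup98. Inppl1 at 2.07 lies between Clpb at -0.05 and Anapc15 at 0.01. Stard10 at -0.80 lies between Atg16l2 at 0.08 and Arap1 at 0.10, and Gm45837, next past Arap1, is at 0.92. Clpb and Arap1 are among the 10 genes that this comparison chose.

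Inppl1 showed the largest difference of the 10. It encodes SHIP2, a phosphatase that trims the lipid messenger made by phosphoinositide kinases and so limits signalling downstream of growth factor receptors. The NA MP samples held 29.4, 32.5, 32.0 and 33.8 CPM, and the WT MP samples 6.97, 8.74, 7.81, 6.16 and 8.26 CPM. The NA MP samples lay far above the WT MP samples. The fold change was 4.19 (log2 2.07, SE 0.098), resting on 162 to 271 reads per NA MP sample and 41 to 68 per WT MP sample. It stayed between 2.0 and 2.13 on the log2 scale when each sample was left out in turn. Per length of exon, Inppl1 was the lowest of the 10 genes in WT MPs, at 1.19 RPKM (CPM divided by the exon length in kb), and rose past Clpb in mean to 4.98 RPKM in NA MPs, where the ranges of the 2 genes overlapped.

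Inppl1 spans chr7:101822632-101838229 on the minus strand, and its start is 372 kb from that of Nup98. Genes on both sides of it did not share its difference. Clpb, which starts 174.6 kb away at lower coordinates, had a log2 fold change of -0.05, and Anapc15, a subunit of the complex that drives mitotic exit, had 0.01 at 25.5 kb on the higher side (SE 0.076, adjusted p = 0.967 by edgeR). Its exons overlap those of Phox2a, which had 0 reads in every sample, and of the antisense gene Gm10602, which had 0 to 6 reads per sample and 21 in all, both on the opposite strand.

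Of the 10 genes, only Stard10 was called lower in NA MPs. It encodes a lipid transfer protein with a START domain, which carries phospholipids between membranes. Its level was 39.1, 35.1, 29.3 and 36.3 CPM in the NA MP samples and 68.1, 66.8, 54.0, 59.5 and 54.9 CPM in the WT MP samples. All NA MP samples were below all WT MP samples, although the spread inside each group was wide, with a coefficient of variation of 11.9% in NA MPs and 10.8% in WT MPs. The log2 fold change was -0.80 (SE 0.080), a level 0.576 of that in WT MPs. Without each sample in turn it lay between -0.84 and -0.72.

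Stard10 (chr7:101317086-101346626, plus strand) lies between genes that did not fall with it. Atg16l2, an autophagy gene whose start is 14.8 kb away, had a log2 fold change of 0.08 (SE 0.11, edgeR adjusted p = 0.636). Arap1, which begins 31.0 kb further on in the same direction, had 0.10. It is among the 10 genes that this comparison chose, so nothing is read from its value. In WT MPs Stard10 was among the more abundant of the 10 genes, at 25.1 RPKM with samples from 22.3 to 28.2, and it could not be told apart from Rab6a at 24.6 RPKM (23.5 to 25.1). In NA MPs it fell to 14.4 RPKM (12.1 to 16.2), below Rab6a, and its range overlapped that of Arap1, which was 15.9 RPKM (15 to 16.7).

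The bases upstream of the gene that rose most, the gene that fell, and a gene next to the latter that was not called are shown because their mRNA went different ways within the same stretch of chromosome. Each is the 250 bases before the annotated start in RefSeq (build GRCm38.p6), written in the direction of the gene, with CG pairs in capitals. They are chr7:101838227-101838476 on the minus strand for Inppl1, chr7:101316836-101317085 on the plus strand for Stard10 and chr7:101347819-101348068 on the plus strand for Arap1.
Inppl1: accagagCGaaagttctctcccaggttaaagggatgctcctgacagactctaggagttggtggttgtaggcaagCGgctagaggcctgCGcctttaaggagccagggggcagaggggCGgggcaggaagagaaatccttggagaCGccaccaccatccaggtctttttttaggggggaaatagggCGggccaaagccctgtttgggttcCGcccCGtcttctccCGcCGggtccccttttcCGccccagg
Stard10: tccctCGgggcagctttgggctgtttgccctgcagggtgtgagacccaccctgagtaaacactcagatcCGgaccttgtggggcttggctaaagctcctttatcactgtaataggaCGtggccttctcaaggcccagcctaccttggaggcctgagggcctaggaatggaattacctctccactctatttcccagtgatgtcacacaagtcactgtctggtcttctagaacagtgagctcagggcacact
Arap1: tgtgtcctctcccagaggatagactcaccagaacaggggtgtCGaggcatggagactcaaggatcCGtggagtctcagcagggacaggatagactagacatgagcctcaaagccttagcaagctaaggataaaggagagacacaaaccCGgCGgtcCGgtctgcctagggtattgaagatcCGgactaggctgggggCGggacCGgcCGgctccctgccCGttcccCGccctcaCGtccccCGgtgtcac
The window of Stard10 holds 3 CG pairs, that of Inppl1 11 and that of Arap1 13.

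The ratio of CG pairs found to those expected from base composition was 0.163 for Stard10, the lowest of the 10 genes, and 0.487 for Inppl1, the next lowest. Arap1 followed at 0.571, Rhog at 0.587 and Relt at 0.780, while Stim1, Clpb and Fchsd2 lay between 0.809 and 0.854 and Pgap2 and Rab6a were the highest at 1.12 and 1.18. For Fchsd2 the window lies before a start at 101108775, while its distance uses a start at 101092863. For Rhog these starts were 102250118 and 102256054, so both windows describe a different start than the distances do. The starts were nearer to each other for the other genes, and the same only for Stard10. For Rab6a they were 100607586 and 100607410, so its window runs past the latter. The window of Pgap2, chr7:102209923-102210172, lies inside Nup98. The median over the promoters of 9034 tested genes was 0.744, so 4 of the 10 lay below it. Among these 9034 genes, which are not all tested genes, 851 of 1995 with a ratio under 0.5 were called (42.7%), and 2251 of 7039 at or above it (32.0%). Relt and Fchsd2, which were called as well, lay above the median. Whether CG content has a part in which of the 10 genes differed was not tested. Searched on both strands for fixed motifs, the 10 windows held only the NF-Y box CCAAT, at 2 places in Rab6a, a motif found in 37.1% of the windows of tested genes. The motifs CCGGAAG for ETS factors (15.1%), TGANTCA for AP-1 (3.95%), TGATTTA for HOX with PBX (1.32%) and AGATAAG for GATA factors (1.61%) matched in none of the 10. No match says only that these letters are not in this window.

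Relt and Fchsd2, at lower coordinates than Stard10, were higher in NA MPs by smaller amounts. Relt encodes a receptor of the tumour necrosis factor family found in lymphoid and blood tissues. It gave 36.6, 37.2, 37.0 and 35.6 CPM in NA MPs and 25.9, 32.1, 25.0, 28.4 and 30.3 CPM in WT MPs. The NA MP samples were close together (coefficient of variation 1.996%, the lowest of the 10 genes) and all were above the more scattered WT MP samples (10.5%). The log2 fold change was 0.36 (SE 0.072), and 0.32 to 0.41 without each sample in turn. Its neighbours Fam168a and P2ry2, a nucleotide receptor, had 0.12 (SE 0.056) and 0.03 (SE 0.13), with edgeR adjusted p of 0.105 and 0.868.

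Fchsd2 encodes a protein with an F-BAR and SH3 domains that promotes actin assembly at sites of endocytosis. The NA MP samples had 66.5, 59.5, 58.0 and 60.0 CPM, and the WT MP samples 45.1, 50.9, 53.0, 57.0 and 48.9 CPM. The groups did not overlap, but NA MP replicate 3 and WT MP replicate 4 were close to each other. The log2 fold change was 0.26 (SE 0.059), and 0.22 to 0.30 without each sample in turn. Fchsd2 is the longest of the 10 genes, spread over 191.5 kb, and shares exonic sequence on the opposite strand with Atg16l2. Whether the counting used strand is not named, so reads from such a stretch cannot be assigned with certainty.

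Arap1 was not called, though its call depended on single samples. It encodes a phosphoinositide-binding protein that switches off Arf GTPases and acts in receptor traffic. Its level was 133, 141, 136 and 127 CPM in NA MPs and 124, 123, 131, 122 and 126 CPM in WT MPs, so that the 2 groups overlapped through NA MP replicate 4 and WT MP replicate 3. The log2 fold change was 0.10 (SE 0.040). It was 0.13 without NA MP replicate 4 and 0.11 without WT MP replicate 3, the samples whose removal turned the call to higher, and 0.02 once GC content and length were corrected for. It shares exons on the same strand with the gene model Gm45837, which makes its counts uncertain.

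The other 5 genes did not differ beyond the spread between samples. Clpb, a mitochondrial protein disaggregase whose loss in people causes neutropenia, had 48.4, 50.3, 52.5 and 44.0 CPM in NA MPs and 50.7, 48.7, 49.1, 54.0 and 49.7 CPM in WT MPs. NA MP replicate 4 was the lowest of all, and the groups overlapped, with a log2 fold change of -0.05 (SE 0.059). Pgap2, which acts in the Golgi on the lipid part of GPI anchors, had 52.4, 43.8, 47.1 and 51.1 CPM against 53.2, 50.9, 52.5, 51.5 and 48.5 CPM. NA MP replicates 2 and 3 lay below the WT MP samples while replicates 1 and 4 lay among them, for a log2 fold change of -0.08 (SE 0.059). Pgap2 starts 32 bases from Nup98 and is read in the opposite direction. Nup98 had a log2 fold change of 0.68, which may hold reads of the fusion gene from another chromosome. Pgap2 is also among the genes that this comparison chose, so nothing is read from its value beside that of Nup98.

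Rhog and Stim1 lie just beyond Pgap2, 45.9 and 57.6 kb from Nup98. Rhog, a GTPase that turns on Rac through ELMO and DOCK proteins, ran from 135 to 152 CPM in NA MPs and from 131 to 148 CPM in WT MPs, with a log2 fold change of 0.07 (SE 0.040). Stim1, the calcium sensor of the endoplasmic reticulum, ran from 75.7 to 83.0 CPM in NA MPs and from 78.3 to 85.3 CPM in WT MPs, with -0.03 (SE 0.047). The groups overlapped for both genes. Rab6a, a GTPase of Golgi traffic and the farthest of the 10 at 1602.8 kb, ran from 88.7 to 94.4 CPM in NA MPs and from 87.5 to 93.6 CPM in WT MPs. Its log2 fold change was -0.02 (SE 0.044), the smallest in size of the 10. Rab6a shares exonic sequence with Mrpl48 on the opposite strand, and Pgap2 with a processed transcript on the same strand.

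**Figure D2:**
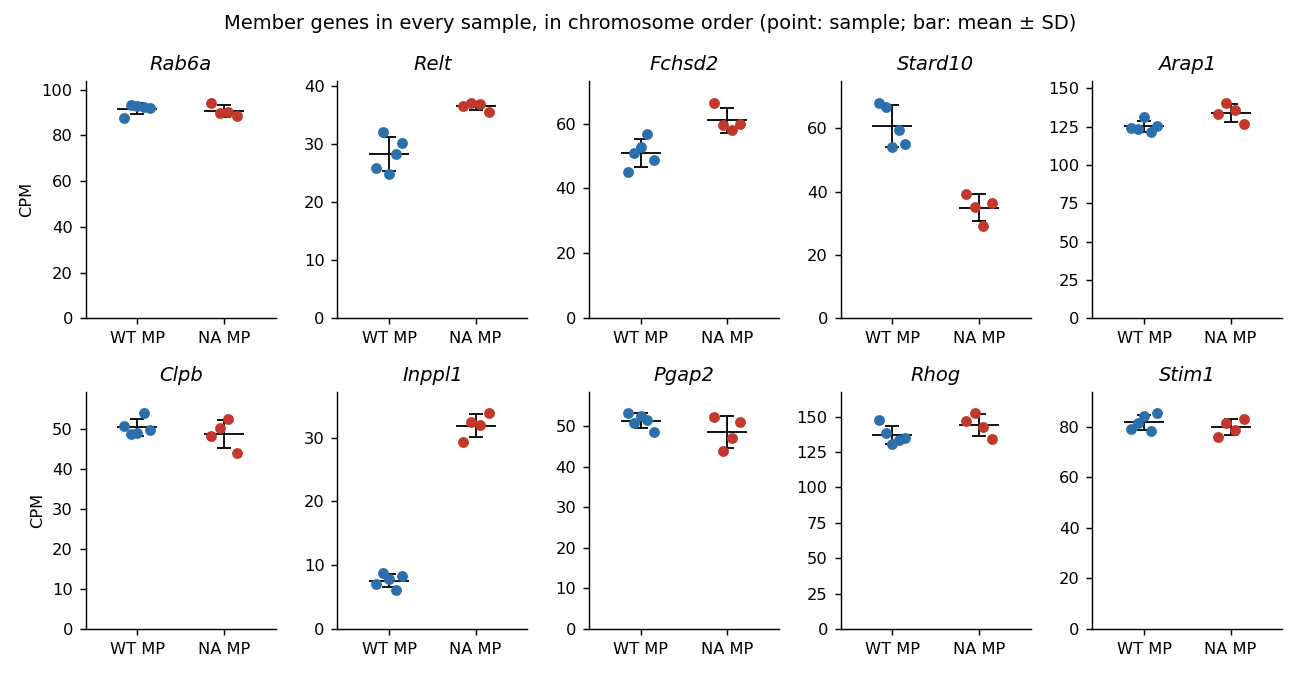
Level of each of the 10 genes in every sample, in CPM on an axis that starts at 0, in their order along chromosome 7; blue points are the 5 WT MP samples, red points the 4 NA MP samples, and bars the mean ± SD. The groups are clear of each other for Relt, Fchsd2, Stard10 and Inppl1 and overlap for the other 6 genes.

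Per length, the order of the genes was led by Rhog in both groups, at 96.6 RPKM in WT MPs and 101 RPKM in NA MPs. In WT MPs, Stard10 and Rab6a came next without a gap between them, followed by Arap1 at 14.8 and Pgap2 at 11.3 RPKM. Relt at 8.64 RPKM (7.61 to 9.80) and Stim1 at 7.87 (7.55 to 8.22) overlapped, and Clpb at 5.07, Fchsd2 at 3.06 and Inppl1 at 1.19 RPKM closed the order. In NA MPs, Relt at 11.2 RPKM (10.8 to 11.3) stood beside Pgap2 at 10.7 (9.66 to 11.6), from which it did not differ beyond the spread. Stim1 was at 7.69 RPKM, Clpb at 4.90 (4.42 to 5.27) overlapped Inppl1 (4.59 to 5.28), and Fchsd2 was the lowest at 3.67 RPKM. These levels use exon lengths from GENCODE M21 and not the transcripts each sample used.

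**Figure D3:**
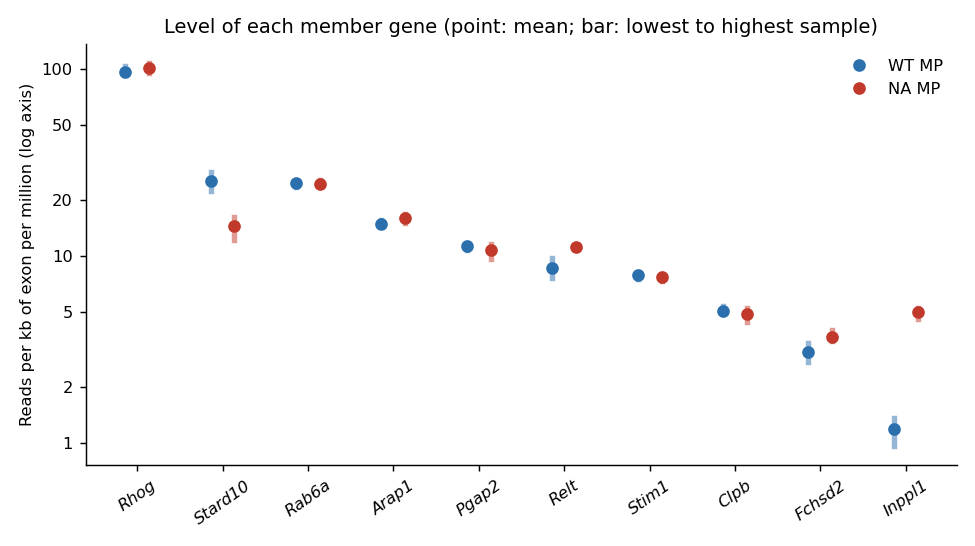
Level of each gene in RPKM (log axis), ordered by the WT MP mean; points are means of 5 WT MP (blue) and 4 NA MP (red) samples, and bars run from the lowest to the highest sample. Inppl1 moves from the lowest place at 1.19 to the level of Clpb near 4.9, and Stard10 drops from 25.1 to 14.4.

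The other protein-coding genes around Nup98 were those within 2 Mb on each side. They are what remained once the 10 genes and Nup98 were set aside, so the share of them that was called depends on how the 10 were chosen, and nothing is read from it. Of 128 such genes in the data, 44 had any read and 24 were tested. Many of the rest are olfactory receptor genes, of which 1 of 82 was tested. Of the 24 genes 4 were called, 3 higher and 1 lower (16.7%, against 34.1% of all tested genes), and their median log2 fold change was -0.01. With the 10 genes and Nup98 included, 9 of 35 were called (25.7%), and within 5 Mb the others gave 27 of 74 (36.5%), so the share moved to the other side of the background with the window. Ucp2, an inner mitochondrial membrane carrier 1716.8 kb from Nup98, had 744 to 820 CPM in NA MPs and 561 to 618 CPM in WT MPs (log2 fold change 0.42, SE 0.030, edgeR adjusted p = 1.19e-15). Rrm1, the large subunit of ribonucleotide reductase, which begins 173.9 kb beyond the start of Stim1, had 348 to 354 CPM against 427 to 447 CPM (-0.32, SE 0.028, edgeR adjusted p = 1.05e-13). Numa1, a protein of the mitotic spindle poles, was higher by 0.11 (SE 0.029, edgeR adjusted p = 0.00286), a call lost once counts were corrected for GC content and length (0.06, adjusted p = 0.0705). Gm45837 (ENSMUSG00000030653) was higher by 0.92 (SE 0.12, edgeR adjusted p = 6.15e-04), but it shares exons with Arap1 and with Pde2a, a cyclic nucleotide phosphodiesterase, so which gene these reads came from is uncertain. Ucp2, Numa1 and Anapc15 share exonic sequence on the opposite strand with Dnajb13, Il18bp and Tomt.

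Relt, Fchsd2, Stard10 and Inppl1 each had, as the nearest tested gene on either side, a gene that was not called. Of these, Arap1 beside Stard10 and Clpb beside Inppl1 belong to the 10 genes that this comparison chose, so nothing is read from this. Arap1 was called higher under 4 alternatives and Fam168a, beside Relt, under 1. On the other flank of Nup98, Xntrpc, 144.5 kb away, had a log2 fold change of -0.04 (SE 0.054, edgeR adjusted p = 0.615). Nup98 itself lay between Xntrpc and Pgap2, which were not called, and Pgap2 too is among the genes that this comparison chose.

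For each of the 10 genes, relatives and partners with the same task were counted from lists written for this purpose, without the gene itself. Each share called is to be read beside the 34.1% of all tested genes, 17.9% higher and 16.3% lower. For store-operated calcium entry, the task of Stim1, 9 of 29 tested genes were called higher and 4 were called lower (44.8% in all), and the median log2 fold change was 0.03. Stim1 and its relative Stim2 (-0.10, SE 0.071) and the channel Orai1 (-0.03, SE 0.064) were not called. The channels Orai2 (0.35, SE 0.052) and Orai3 (0.20, SE 0.056), the inhibitor Saraf (0.24, SE 0.042) and the upstream phospholipase Plcg1 (0.45, SE 0.052) rose.

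Of 28 inositol phosphatases other than Inppl1, 6 were called higher and 3 lower (32.1%), with a median of 0.03. Inpp5d, which encodes SHIP1, the relative of SHIP2 that prevails in blood cells, rose by 0.13 (SE 0.033), from a mean of 213 to 234 CPM. Inpp5j rose by 0.98 (SE 0.20), from 2.53 to 4.995 CPM, and Mtmr4, of the myotubularin family, fell by 0.45 (SE 0.055). No other gene of the list had a difference as large as that of Inppl1. Of 14 lipid transfer proteins listed with Stard10, 4 were higher and 1 was lower (35.7% called, median 0.08), among them Pitpnm1, a phosphatidylinositol transfer protein, which rose by 0.56 (SE 0.059). Stard10 therefore had the lowest value in its list.

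Of 20 Arf GTPase-activating proteins other than Arap1, 3 were higher and 5 lower (40.0% called, median -0.07). Its relatives Arap2 (0.08, SE 0.063) and Arap3 (-0.09, SE 0.058) were not called, and Acap1, which acts in endosome recycling, rose by 0.42 (SE 0.033). Of 31 activators and effectors of Rhog, 10 were higher and 4 lower (45.2% called, median 0.04). Elmo1 (0.16, SE 0.036), Dock2 (0.16, SE 0.031) and Rac2 (0.23, SE 0.031), which work together in leukocyte movement, rose, whereas Dock1, the relative of Dock2, fell by 2.15 (SE 0.095), from 34.6 to 7.80 CPM.

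Of 23 F-BAR and partner genes of Fchsd2, 6 were higher and 8 lower (median 0.07), 60.9% called against 34.1% of all genes. Itsn1, the endocytic scaffold that binds Fchsd2, fell by 1.07 (SE 0.12) while Fchsd2 was higher, Fer, a tyrosine kinase, fell by 1.01 (SE 0.16), and Gmip rose by 0.53 (SE 0.042). The relative Fchsd1 had 0.19 (SE 0.098) and was not called. Of 23 genes listed with Relt, 7 were higher and 3 lower (43.5% called, median 0.10). Its relative Rell1 rose by 0.29 (SE 0.075), Rell2 was not called (0.09, SE 0.25) and the receptor Tnfrsf19 rose by 3.77 (SE 0.36) from 0.526 to 7.48 CPM.

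Of 33 genes of Rab6 and Golgi traffic, 6 were higher and 4 lower (30.3% called, median -0.01). Rab6b, the close relative of Rab6a, rose by 1.01 (SE 0.21), from 2.73 to 5.63 CPM. Rgp1, which with Ric1 activates Rab6, rose by 0.17 (SE 0.043), and Ric1 was not called (-0.04, SE 0.068). Of 27 genes of GPI anchor synthesis and remodelling listed with Pgap2, 3 were higher and 5 lower (29.6% called, median below 0.01). Pgap3, which acts beside Pgap2, had -0.0023 (SE 0.13), while Pigq (SE 0.043) and Piga (SE 0.063), both of the initial step of anchor synthesis, fell by 0.31 and 0.28. Of 27 mitochondrial chaperones and AAA proteases listed with Clpb, 10 were called (37.0%) and all of these were lower (median -0.08). They include Hspd1 (-0.26, SE 0.028) and Hspe1 (-0.26, SE 0.042), the folding chamber of the mitochondrial matrix. Clpb itself was not called, and neither was Hax1, a protein that Clpb keeps soluble (-0.06, SE 0.063).

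**Figure D4:**
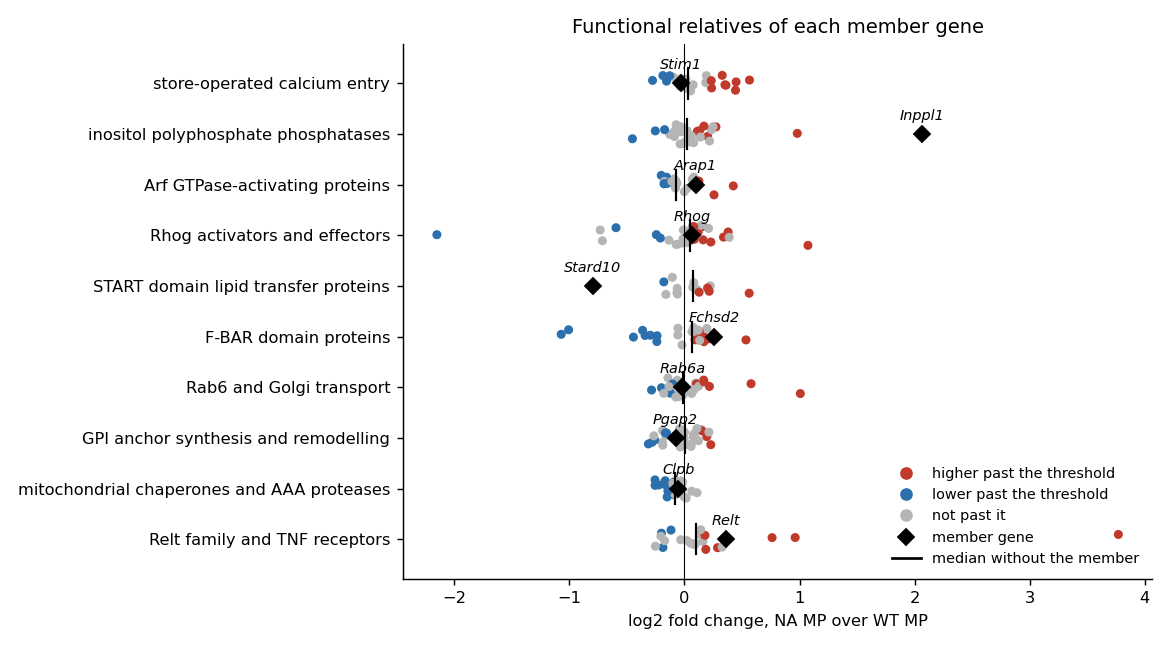
log2 fold change of NA MPs over WT MPs (horizontal axis) for the tested genes of each functional list (vertical axis; vertical scatter within a list has no meaning). Red and blue points were called higher and lower by edgeR and grey points were not called; black diamonds are the 10 genes near Nup98 and short lines the list medians without them. Inppl1 lies to the right of its whole list and Stard10 to the left of its own, and the other 8 lie within theirs.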

How the data were processed

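Poly(A) RNA of 4 NA MP and 5 WT MP samples was sequenced from TruSeq libraries. The authors aligned the reads and deposited an expected count per gene from RSEM for 37980 genes, and the submitters' processing notes name mm10 (GRCm38), RSEM, bcl2fastq and DESeq2. Low values in the deposited table are whole multiples of 1 number per sample, from 0.827 to 1.20, so the expected counts had been divided by a factor for each sample before deposit. After division by that number 92.3% to 97.4% of values above 0 were whole within 0.01. Reads were recovered in this way, rounded and summed to the totals given above, whereas the deposited totals ran from 6602851 to 6734284. This step was chosen after seeing the data, and the deposited values as they are were an alternative.

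In R 4.3.3, edgeR 4.0.16 (TMM, filterByExpr with a minimum count of 10, robust quasi-likelihood test, Benjamini-Hochberg adjustment, threshold 0.05) was fitted to all 9 samples, without covariates. DESeq2 1.42.0, which the study used, and limma 3.58.1 were alternatives. On simulated data of 11723 genes edgeR recovered 100% of genes changed 4-fold and 73% of those changed 1.25-fold in NA MP against WT MP, with 3.35% of all calls false. Only 100 genes were changed by each fold, none of them of low level in WT MPs, with the spread fitted to these data. In the data themselves 34.1% of tested genes were called, so these shares need not hold there. No 2 samples of a group agreed within sampling noise (chi-square per degree of freedom 1.20 to 2.84), and none was treated as a repeat. Repeat libraries of the same mouse can also differ by more than sampling noise, so this does not show that the samples are independent. The biological coefficient of variation fitted by edgeR was 3.49%. Symbols matched 32916 genes. Positions, exon lengths and overlaps came from GENCODE M21 (GRCm38) and upstream sequences from RefSeq. The members, the functional lists and the marker lists were chosen with earlier results of these data known. Besides the 10 genes, those named are Nup98 and Hoxa10, the tested genes next to them or called within 2 Mb, and of each list the closest relatives and up to 4 called genes with the largest change.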

Additional observations from a re-analysis of the deposited data

Results flagged for a closer look

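In groups of 4 or 5 samples, a sample was set apart where its gap to the nearest other sample took up most of the range of its group, past Dixon's 95% limit. This held for 6 of 168 groups tested, whereas chance gives about 1 in 20, or 8.4. Among the 10 genes it held only for Rab6a, where WT MP replicate 1 had 87.5 CPM and the other WT MP samples 92.0 to 93.6 CPM. WT MP replicate 1 was also low for Rab6b, at 1.14 CPM against 2.86 to 3.37 CPM. NA MP replicate 3 had 41.7 CPM for Ric1 against 34.8 to 35.4 CPM in the other NA MPs. WT MP replicate 2 had 59.1 CPM for the Arf GTPase-activating protein Agap2 against 63.2 to 64.3 CPM, and 50.4 CPM for the lipid transfer gene Stard4 against 41.8 to 44.1 CPM. WT MP replicate 3 had 63.4 CPM for the golgin Golga5 against 55.7 to 57.7 CPM.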

How the results depend on the processing

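Of all tested genes 4078 were called, and 2887 to 4305 under the alternatives (3084 with DESeq2, 3638 to 3959 with each sample left out). The count of called members, a description since this comparison chose them, was 4, and 5 where Arap1 joined: with at least 10 reads in every sample, with the deposited values as they are, and without NA MP replicate 4 or WT MP replicate 3 (4 to 5 with each sample left out). Of the other genes within 2 Mb, 4 to 6 were called with each sample left out, 5 with limma and 6 without the filter. In the 2 fits with 6 that left out a sample, those without NA MP replicate 4 and without WT MP replicate 2, Hbb-bs was gained (log2 0.62, edgeR adjusted p = 0.0438 and 0.0433), with Tomt (-0.62) in the former and Trim68 (-0.35) in the latter. A window of 1 Mb held 3 called of 13 tested and a window of 5 Mb held 27 of 74 (36.5%), 15 higher and 12 lower. The correction for GC content and length replaced Numa1 by Fam168a (0.14, edgeR adjusted p = 0.0363), and Arap3 was called lower without NA MP replicate 1 (-0.17, edgeR adjusted p = 0.0136). Over the 84 genes that the rule names, no called gene changed direction. The replicate numbers shared by the groups did not pair the samples (correlations of -0.02 to 0.05), and with the replicate block 3741 genes were called, 4 of the 10 members and 4 of the others within 2 Mb. Depth limits Inppl1 most, with 41 reads in its lowest sample, and exons shared between genes limit Fchsd2, Arap1, Inppl1, Rab6a and Pgap2.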
